A study of Homo sapiens with 9 samples.

Results

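This account covers 33 p53 target and growth arrest genes, measured at the level of the transcript in the cell line Flip-In-293, which derives from HEK293, a line of human embryonic kidney cells. The members are a set of genes that p53 is known to activate, with the feedback regulators that act on p53 itself; they were found by gene symbol, and TIGAR was found under its older name C12orf5. All 33 had a gene level, out of 16748 genes tested and 19426 genes with at least 1 probe set on the arrays. The members had 556 probe sets that name 1 gene, of which 482 passed the filter on low signal, between 4 (TRIAP1) and 32 (APAF1) per gene.

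The study asked how factors that form the 3' ends of mRNAs, and the splicing regulator RBFOX2, bear on the use of internal exons. Total RNA was hybridised to 9 Affymetrix Human Exon 1.0 ST arrays, 3 per group. The groups received a lentivirus with a non-silencing hairpin (control), a hairpin labelled for CPSF3, the endonuclease of the cleavage and polyadenylation complex, or a hairpin labelled for RBFOX2. RNA was taken after 10 days of culture in every group, and all groups carried a lentivirus, so no array shows uninfected cells. The sample titles call the replicates biological and the series text calls them technical, so the p-values below measure only the spread between these arrays. The labels give no hairpin sequence and do not say how many hairpins were used per target.

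In most cells p53 is held at a low level by MDM2, which ubiquitinates it, and by MDM4, which blocks its activation domain. Damaged DNA and other stress release p53, which then activates genes for cell cycle arrest, DNA repair, apoptosis and metabolic change, and also the gene of MDM2, which closes a feedback loop. HEK293 cells carry adenoviral E1 genes whose products bind p53, and these cells hold much p53 that is held back from its targets. Many of the genes named here are also driven by other factors, among them the stress response factors ATF4 and CHOP, so a level of such a gene is not a reading of p53 activity. The gene of p53 itself was not analysed here.

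A gene level is the median log2 signal of the kept probe sets of a gene on an array, so a difference of 1 is a doubling. Differences are given on the log2 scale with the standard error (SE) of the limma fit, and a gene is called where its limma p, adjusted by Benjamini-Hochberg over all genes tested, is under 0.05. The targeted genes were read first. CPSF3 levels were 9.33, 9.29 and 9.80 on the control arrays and 9.60, 9.27 and 9.27 on the arrays labelled CPSF3 knockdown, a difference of -0.09 ± 0.16 (SE; limma adjusted p = 0.752), and +0.07 without control replicate 3. The arrays therefore did not show the reduction that the label names, and every direction given for the labelled CPSF3 knockdown rests on that label. RBFOX2 levels were 9.66, 9.54 and 9.38 in control and 8.95, 8.83 and 9.05 in the RBFOX2 knockdown, a difference of -0.58 ± 0.12 (limma adjusted p = 0.0617), and -0.66 ± 0.12 without control replicate 3, where it was called (limma adjusted p = 0.00424). Control replicate 3 stood apart, with a root mean square distance over all genes of 0.294 to the other controls and of 0.183 to the mean of the RBFOX2 knockdown; calls of members that change without it are given both ways. RBFOX2 replicate 3 too was nearer to another group, at 0.198 from the labelled CPSF3 mean and 0.222 from the other RBFOX2 arrays. Without it the counts of called members in the 3 comparisons given below were 10, 0 and 1, in place of 11, 0 and 1. Over all genes 13.5%, 0.0119% and 0.424% were then called. In bulk RNA, fewer cells of a kind and less RNA per cell cannot be told apart.

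Between the labelled CPSF3 knockdown and control, 11 of the 33 members were called: 9 were lower and 2 were higher. GDF15, GADD45A and PMAIP1 fell furthest, to between 34.3% and 50.7% of the control level, and TIGAR and EI24 rose to 154.5% and 147.4% of it. Over all 16748 genes, 4.38% were called lower and 10% were called higher; among the members 27.3% were called lower and 2 of 33 higher. The median difference over the 33 members was -0.09, beside 0.01 over all genes. A difference below 0 was found for 21 members (63.6%), beside 48.4% of all genes. On 10 members all 3 labelled CPSF3 arrays lay below all 3 control arrays, against a background of 13.2% of genes, and on 3 members they lay above, against 17.9% of genes. The count of called members was 5 without control replicate 1, where 6.46% of all genes were called, and 7 without labelled CPSF3 replicate 2 (8.75%). With array weights it was 16, where 28.8% of all genes were called; the added members were MDM2, BAX, SESN1, ZMAT3 and PHLDA3. The 22 members that were not called had differences between -0.36 (ZMAT3) and 0.38 (BAX), as the plot of differences for all members shows.

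**Figure D1:**
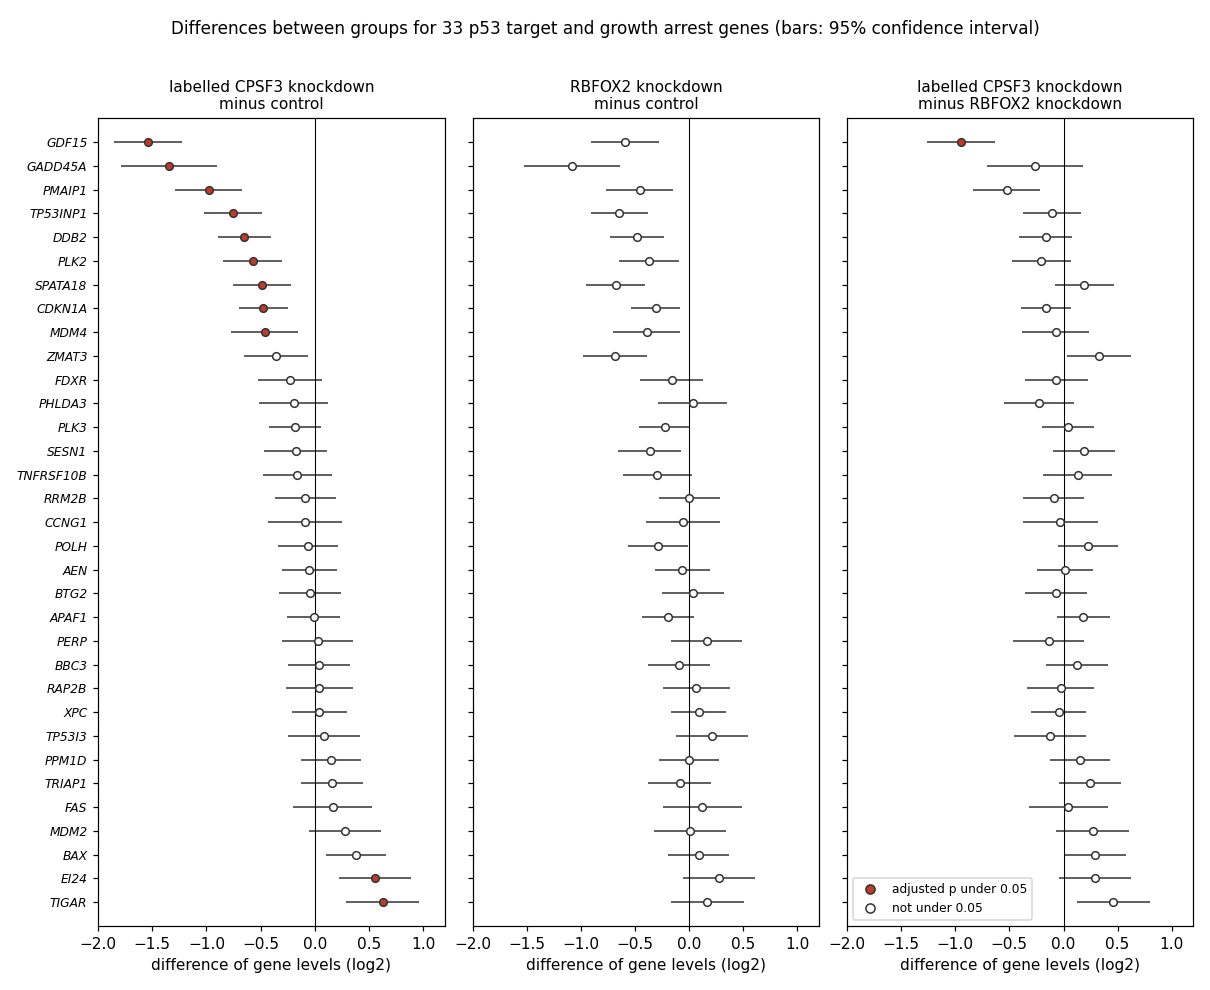
Difference of mean gene level (log2, horizontal axis) for each of the 33 members (vertical axis, ordered by the first panel) in 3 comparisons; points are differences, bars the 95% confidence interval of the limma fit, and filled points have an adjusted p under 0.05. In the first panel 9 members lie left of 0 and 2 right of it as filled points, in the second none is filled, and in the third GDF15 alone is filled.

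GDF15, a stress-induced hormone that reduces appetite, gave the widest separation. Its gene level was 10.75, 10.69 and 10.80 on the control arrays, 8.96, 9.33 and 9.31 on the labelled CPSF3 arrays and 9.98, 10.47 and 10.01 on the RBFOX2 arrays. The 3 groups did not overlap, with control highest and the labelled CPSF3 knockdown lowest. The difference between labelled CPSF3 knockdown and control was -1.54 ± 0.15, which is 34.3% of control (limma adjusted p = 0.000219), and it was called under all 18 alternative settings. Its promoter, shown because it carries the only TATA box (TATAAA, either strand) among the members' promoter windows, where 11.5% of all RefSeq windows hold one, reads as follows for the 120 bases before the transcript start (chr19:18386038-18386157, plus strand, GRCh38.p14, RefSeq), with the TATAAA element in capitals.

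GDF15: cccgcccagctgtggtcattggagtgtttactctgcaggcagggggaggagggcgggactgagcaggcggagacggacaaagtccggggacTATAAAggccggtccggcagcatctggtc

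Of the 5 members that restrain the cell cycle, CDKN1A, GADD45A and PLK2 fell and PLK3 and BTG2 were not called. CDKN1A encodes p21, the inhibitor of cyclin-dependent kinases that carries much of the p53 arrest. Its level was 9.74, 9.58 and 9.72 in control, 9.22, 9.24 and 9.16 in the labelled CPSF3 knockdown and 9.32, 9.47 and 9.32 in the RBFOX2 knockdown. Every array of either knockdown lay below every control array. The fall in the labelled CPSF3 knockdown was -0.47 ± 0.11, to 72.0% of control (limma adjusted p = 0.0113), and the adjusted p was 0.0529 without control replicate 1. The 120 bases before its start (chr6:36678594-36678713, plus strand, GRCh38.p14) are shown for their run of GC boxes, GGGCGG in capitals, of which the last pair overlaps.

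CDKN1A: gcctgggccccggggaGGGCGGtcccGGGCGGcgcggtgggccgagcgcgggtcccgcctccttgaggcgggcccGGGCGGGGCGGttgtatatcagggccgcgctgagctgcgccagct

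GADD45A, a small stress protein that binds PCNA and the kinase CDK1, stood at 10.62, 10.40 and 9.66 in control, 8.99, 8.89 and 8.77 in the labelled CPSF3 knockdown and 9.09, 9.44 and 8.91 in the RBFOX2 knockdown. Control replicate 3 was the lowest of the controls, and still above all 6 knockdown arrays. The fall in the labelled CPSF3 knockdown was -1.34 ± 0.21, to 39.4% of control (limma adjusted p = 0.00215), and -1.63 ± 0.15 without control replicate 3. PLK2, a polo-like kinase of the early cell cycle, had levels of 8.86, 8.51 and 8.59 in control, 8.29, 7.98 and 7.96 in the labelled CPSF3 knockdown and 8.27, 8.28 and 8.30 in the RBFOX2 knockdown. Its fall of -0.57 ± 0.13 (limma adjusted p = 0.0107) left no overlap with control, and the adjusted p was 0.057 without control replicate 1 and 0.0568 with the stricter filter on low probe sets. The related stress kinase PLK3 differed by -0.18 (limma adjusted p = 0.309), although its 3 arrays too lay below control. BTG2, an antiproliferative partner of the CCR4-NOT deadenylase, differed by -0.04 (limma adjusted p = 0.885). The promoter of PLK2, on the minus strand of chromosome 5 (chr5:58460169-58460258, GRCh38.p14), is printed because it holds a p53 decamer, the 10-base element that binds a dimer of p53, in capitals.

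PLK2: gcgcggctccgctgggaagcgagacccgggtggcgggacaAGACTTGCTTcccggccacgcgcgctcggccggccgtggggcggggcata

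Among the DNA repair members, DDB2 fell and the others did not pass the test. DDB2, the subunit that recognises ultraviolet damage for nucleotide excision repair, measured 10.13, 10.04 and 10.28 in control, 9.49, 9.51 and 9.50 in the labelled CPSF3 knockdown and 9.57, 9.84 and 9.59 in the RBFOX2 knockdown. Both knockdowns lay wholly below control, and the labelled CPSF3 arrays were the tighter of the groups. The fall was -0.65 ± 0.12, to 63.7% of control (limma adjusted p = 0.0042), and was called under all 18 alternative settings. XPC, which acts in the same repair pathway, differed by 0.04, the translesion polymerase gene POLH by -0.06 and RRM2B, a ribonucleotide reductase subunit, by -0.09, with limma adjusted p between 0.721 and 0.856. Among the 28 members with a promoter window, DDB2 alone held a full p53 site by exact match. Such a site is 2 decamers with a spacer of 0 to 13 bases. In DDB2 the spacer is 1 base, and the match starts at base 6 of the transcript (chr11:47214975-47215004, plus strand, GRCh38.p14, match in capitals).

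DDB2: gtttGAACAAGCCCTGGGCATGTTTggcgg

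Of the 13 apoptosis members, PMAIP1 and TP53INP1 fell and EI24 rose. PMAIP1 encodes NOXA, a BH3-only protein that neutralises MCL1. Its level was 11.91, 12.13 and 11.98 in control, 10.82, 11.03 and 11.23 in the labelled CPSF3 knockdown and 11.27, 11.72 and 11.67 in the RBFOX2 knockdown. The 3 groups did not overlap, and the order was that of GDF15. The fall in the labelled CPSF3 knockdown was -0.98 ± 0.14, to 50.7% of control (limma adjusted p = 0.00188), called under all 18 alternatives. The 120 bases before its start (chr18:59899876-59899995, plus strand, GRCh38.p14) hold 3 GC boxes, GGGCGG in capitals, on the strand shown, and are printed to set beside CDKN1A. The box is not particular to the called members: 24 of the 28 members with a promoter window held it, among them FDXR and SESN1, which were not called.

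PMAIP1: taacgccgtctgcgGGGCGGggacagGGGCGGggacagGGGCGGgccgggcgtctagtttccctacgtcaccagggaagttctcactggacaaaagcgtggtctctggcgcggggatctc

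TP53INP1, a nuclear protein that promotes phosphorylation of p53 and takes part in autophagy, measured 9.47, 9.26 and 9.30 in control, 8.64, 8.60 and 8.54 in the labelled CPSF3 knockdown and 8.69, 8.91 and 8.49 in the RBFOX2 knockdown. No knockdown array reached the lowest control array. Its fall was -0.75 ± 0.12, to 59.3% of control (limma adjusted p = 0.00307), and was called under all 18 alternatives. EI24, a membrane protein of the endoplasmic reticulum with a part in autophagy, rose: its level was 10.70, 10.58 and 11.13 in control, 11.22, 11.38 and 11.48 in the labelled CPSF3 knockdown and 10.84, 11.13 and 11.25 in the RBFOX2 knockdown. The labelled CPSF3 arrays were all above control, where replicate 3 came nearest. The rise was 0.56 ± 0.15 (limma adjusted p = 0.0282), and 0.72 ± 0.14 without control replicate 3 (limma adjusted p = 0.00243). Leaving out control replicate 1 or 2 or any 1 of the labelled CPSF3 arrays ended the call, with adjusted p between 0.0528 and 0.114, as did using no filter on low probe sets (0.0509). The 50 bases before its start (chr11:125569427-125569476, plus strand, GRCh38.p14) end in a p53 decamer, in capitals, and are shown because this member moved the other way from PLK2 and DDB2.

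EI24: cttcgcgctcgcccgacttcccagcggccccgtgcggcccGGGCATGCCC

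No call was made in the core of the mitochondrial pathway or at the death receptors. BAX, the pore-forming effector, stood at 9.31, 9.37 and 9.47 in control, 9.93, 9.81 and 9.56 in the labelled CPSF3 knockdown and 9.57, 9.26 and 9.59 in the RBFOX2 knockdown. Its difference from control was 0.38 ± 0.13 in the labelled CPSF3 knockdown, with no overlap but a limma adjusted p of 0.067; it was 0.43 (limma adjusted p = 0.0505) without control replicate 3. BAX was called under 3 of the 18 alternatives: with the mean of probe sets (0.30, limma adjusted p = 0.0221), with array weights (0.42, 0.0093) and without labelled CPSF3 replicate 3 (0.48, 0.0473). BBC3, which encodes the BH3-only protein PUMA, was at 8.65, 8.84 and 8.68 in control, 8.50, 9.00 and 8.78 in the labelled CPSF3 knockdown and 8.67, 8.53 and 8.71 in the RBFOX2 knockdown. The groups overlapped, and the difference of 0.04 (95% confidence interval -0.25 to 0.32) turned below 0 under 4 alternatives. FAS, the death receptor, measured 8.37, 8.40 and 8.84 in control, 8.93, 8.49 and 8.68 in the labelled CPSF3 knockdown and 8.33, 8.75 and 8.89 in the RBFOX2 knockdown. Its difference of 0.16 (95% confidence interval -0.20 to 0.53) also turned below 0 under 2 alternatives, and 1 further probe set that names both FAS and STAMBPL1 was not used. The other members of this group were the TRAIL receptor gene TNFRSF10B, the apoptosome scaffold APAF1, the desmosomal protein gene PERP, the oxidoreductase gene TP53I3, the nuclease gene AEN, the AKT inhibitor PHLDA3 and the apoptosis inhibitor TRIAP1. Their differences ran from -0.20 (PHLDA3) to 0.16 (TRIAP1), and none was called.

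Among the 7 members of metabolism, mitochondria and signalling, which include GDF15, TIGAR rose while SPATA18 fell. TIGAR, a phosphatase that slows glycolysis, measured 8.20, 7.87 and 8.49 in control, 9.04, 8.79 and 8.60 in the labelled CPSF3 knockdown and 8.47, 8.25 and 8.34 in the RBFOX2 knockdown. Control replicate 3 came close to the lowest labelled CPSF3 array without reaching it. The rise was 0.63 ± 0.16 (limma adjusted p = 0.0184), and 0.78 ± 0.15 without control replicate 3. The call was lost without control replicate 1 or 2 or labelled CPSF3 replicate 1 or 2 (adjusted p between 0.0514 and 0.0911), and with no filter on low probe sets the difference was 0.34 (limma adjusted p = 0.368). SPATA18, also known as Mieap and active in mitochondrial quality control, was at 8.55, 8.40 and 8.59 in control, 8.28, 7.91 and 7.89 in the labelled CPSF3 knockdown and 7.89, 7.85 and 7.76 in the RBFOX2 knockdown. Here the RBFOX2 arrays lay lowest, with the highest of them level with the lowest labelled CPSF3 array at 2 decimals. The fall in the labelled CPSF3 knockdown was -0.49 ± 0.13 (limma adjusted p = 0.0205). It missed the threshold without control replicate 1 (0.0742) or labelled CPSF3 replicate 2 (0.0849) or 3 (0.0793), with no filter (0.0836) and with the stricter filter, where the difference was -0.28 (0.207).

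Among the rest of that group, the mTORC1 inhibitor SESN1 differed by -0.18, the mitochondrial reductase FDXR by -0.23 and the small GTPase RAP2B by 0.04, with limma adjusted p between 0.30 and 0.89. FDXR was called lower under 3 of the 18 alternatives: with no filter on low probe sets (-0.56, limma adjusted p = 0.0222), with the stricter filter (-0.38, 0.0328) and with the mean of probe sets (-0.34, 0.0229). ZMAT3, an RNA-binding regulator of splicing, was singled out after its values were seen. It measured 10.11, 9.89 and 9.64 in control, 9.69, 9.56 and 9.32 in the labelled CPSF3 knockdown and 9.28, 9.15 and 9.16 in the RBFOX2 knockdown. The RBFOX2 arrays were again the lowest. The difference in the labelled CPSF3 knockdown was -0.36 ± 0.14 (limma adjusted p = 0.0976), and -0.48 (limma adjusted p = 0.0216) without control replicate 3.

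Of the 4 feedback regulators of p53, MDM4 alone was called. It fell, from 9.74, 9.30 and 9.35 in control to 9.22, 8.80 and 8.97 in the labelled CPSF3 knockdown, and it stood at 8.96, 9.14 and 9.12 in the RBFOX2 knockdown. All 6 knockdown arrays were below control. The fall of -0.46 ± 0.14 was the weakest call (limma adjusted p = 0.0452): it was lost under 10 of 18 alternatives, among them leaving out control replicate 1 (adjusted p = 0.202), labelled CPSF3 replicate 2 (0.173) or 3 (0.111), or any 1 RBFOX2 array (0.052 to 0.0622). MDM2, which is itself activated by p53, measured 10.88, 10.73 and 11.36 in control, 11.28, 11.26 and 11.28 in the labelled CPSF3 knockdown and 10.76, 11.13 and 11.12 in the RBFOX2 knockdown. Control replicate 3 was the highest of all 9 arrays for this gene. The difference in the labelled CPSF3 knockdown was 0.28 ± 0.16 (limma adjusted p = 0.269), and without control replicate 3 it was 0.46 ± 0.14 and called (limma adjusted p = 0.0255). PPM1D, the phosphatase WIP1 that switches off p53 and its kinases, was at 10.23, 10.26 and 10.60 in control, 10.55, 10.53 and 10.45 in the labelled CPSF3 knockdown and 10.42, 10.17 and 10.49 in the RBFOX2 knockdown. The groups overlapped, with differences of 0.15 (95% confidence interval -0.13 to 0.43) and 0.00. CCNG1, a cyclin that brings a phosphatase to MDM2, differed from control by -0.09 in the labelled CPSF3 knockdown and by -0.06 in the RBFOX2 knockdown.

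**Figure D2:**
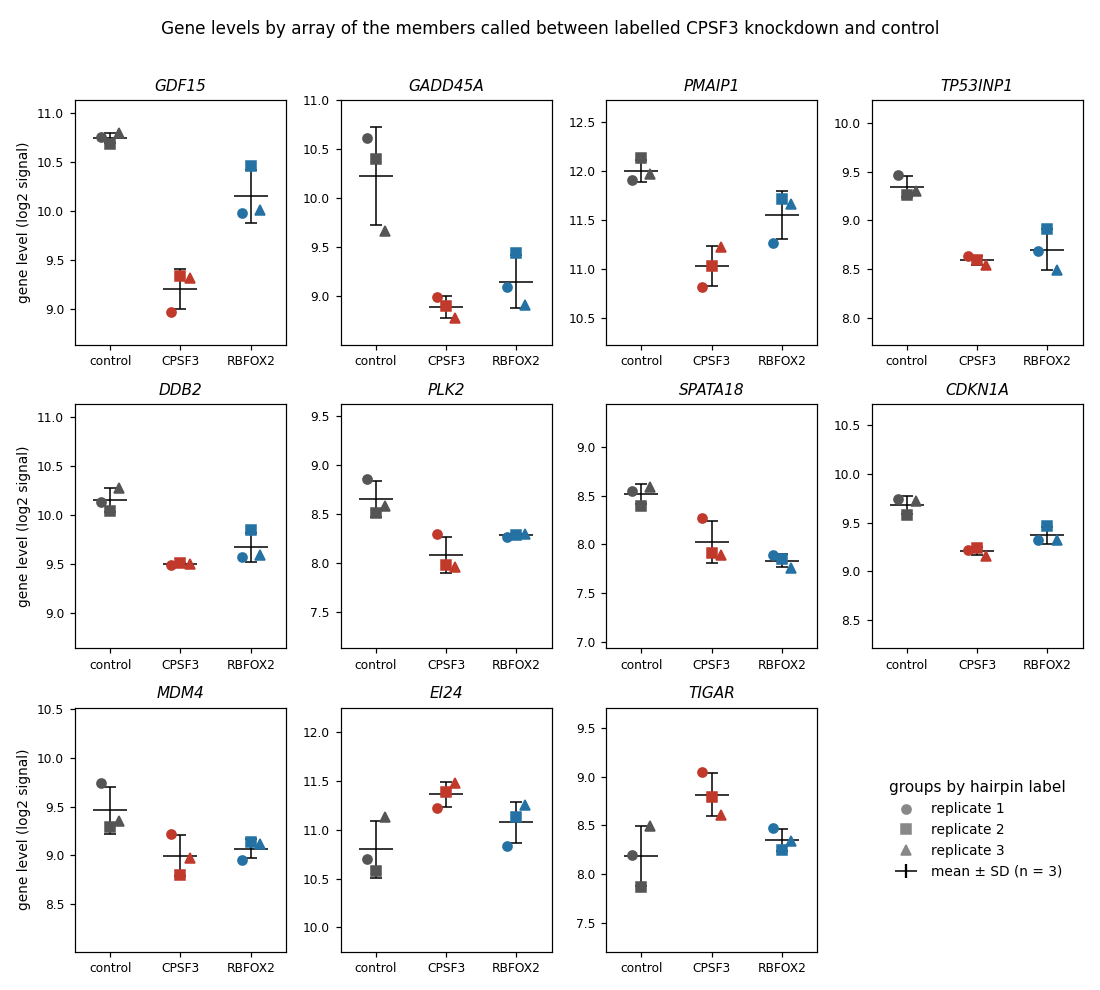
Gene level (log2 signal, vertical axes of equal span) on each array for the 11 members called between labelled CPSF3 knockdown and control; symbols mark replicates 1 to 3, and bars the mean ± SD (n = 3). The labelled CPSF3 arrays lie below control in 9 panels and above it for EI24 and TIGAR, and the RBFOX2 arrays lie between the other groups for GDF15, PMAIP1, CDKN1A and DDB2 but lowest for SPATA18.

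In the RBFOX2 knockdown against control, limma called 0 of the 33 members, where 0.173% of all genes were called. At an unadjusted p under 0.05 there were 12 members, and all 12 were lower: MDM4, CDKN1A, GADD45A, TP53INP1, GDF15, SESN1, ZMAT3, DDB2, POLH, PLK2, PMAIP1 and SPATA18. Over all genes 5.06% were lower at that threshold. On 14 members every RBFOX2 array lay below every control array, against 7.05% of all genes. Both comparisons share the control arrays, so their values for the members are not independent of each other.

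The members closest to the threshold were SPATA18 at -0.68 ± 0.13 (limma adjusted p = 0.0504), GADD45A at -1.08 ± 0.21 (0.0567), TP53INP1 at -0.65 ± 0.12 (0.058) and ZMAT3 at -0.69 ± 0.14 (0.0631). These are 62.4%, 47.2%, 63.9% and 62.2% of control. GDF15 followed at -0.60 ± 0.15 (0.116), DDB2 at -0.48 ± 0.12 (0.113) and PMAIP1 at -0.46 ± 0.14 (0.192). CDKN1A differed by -0.31 ± 0.11 (limma adjusted p = 0.223), MDM4 by -0.39 ± 0.14 (0.245), PLK2 by -0.37 ± 0.13 (0.223) and SESN1 by -0.37 ± 0.13 (0.248). The members that rose in the labelled CPSF3 knockdown were at 0.17 (TIGAR) and 0.27 (EI24) here, and MDM2 was at 0.01, BAX at 0.09, FAS at 0.12 and BBC3 at -0.09.

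Without control replicate 3, 6 members were called in the RBFOX2 knockdown, all lower: GADD45A (-1.37, limma adjusted p = 0.000196), ZMAT3 (-0.81), TP53INP1 (-0.67), SPATA18 (-0.64), GDF15 (-0.57) and DDB2 (-0.42), where 9.23% of all genes were called. In the labelled CPSF3 knockdown the same omission left all 11 members called and added MDM2 and ZMAT3, which makes 13, where 20.5% of all genes were called. GADD45A moved most in both, as control replicate 3 was its lowest control.

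**Figure D3:**
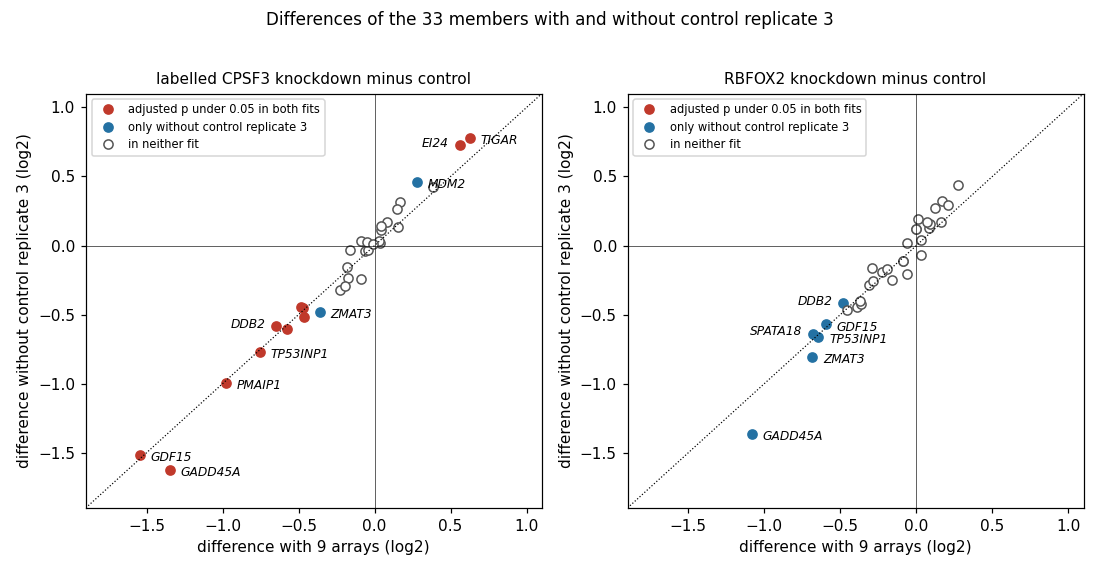
Difference of gene level (log2) of each of the 33 members with all 9 arrays (horizontal axis) and without control replicate 3 (vertical axis), for labelled CPSF3 knockdown (left) and RBFOX2 knockdown (right) against control; the dotted line marks equal values and colours mark the fits with an adjusted p under 0.05. On the left 11 members are called both ways and MDM2 and ZMAT3 only without that array; on the right 6 members are called only without it.

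Set against each other, the knockdowns had 1 called member. GDF15 was lower in the labelled CPSF3 knockdown than in the RBFOX2 knockdown by -0.95 ± 0.15, or 51.9% of it (limma adjusted p = 0.0127), beside 0.263% of all genes called lower. The call was lost without labelled CPSF3 replicate 1 (-0.83, limma adjusted p = 0.0958) or RBFOX2 replicate 2 (-0.79, limma adjusted p = 0.0864). Without control replicate 3, GDF15 was again the 1 member called, where 0.866% of all genes were called in either direction. PMAIP1 differed in the same direction by -0.52 ± 0.14 without passing the test (limma adjusted p = 0.157). TIGAR at 0.46 ± 0.16, ZMAT3 at 0.32 ± 0.14 and BAX at 0.30 ± 0.13 were higher at an unadjusted p under 0.05, as were 7.93% of all genes, with limma adjusted p of 0.229, 0.33 and 0.35. For the members called against control but not here, such as CDKN1A (-0.16, 95% confidence interval -0.39 to 0.07) and GADD45A (-0.26, interval -0.70 to 0.18), the intervals span 0 and do not show that the knockdowns act alike.

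Single probe sets were tested too, to count how many in each gene passed the threshold, without regard to their position in the gene. Between labelled CPSF3 knockdown and control, 34 of the 482 kept member probe sets were called, 30 lower and 4 higher; over all probe sets 0.588% were called lower and 1.01% higher. All 8 probe sets of GDF15 were called lower, by -0.84 to -2.40. PMAIP1 had 5 of 8 called, GADD45A 4 of 6, CDKN1A 4 of 10, DDB2 3 of 20, TP53INP1 2 of 7, FDXR 2 of 21, and PLK2 and SPATA18 1 each, all lower. FDXR and BAX had called probe sets without a called gene level. The called probe sets of FDXR differed by -0.87 and -0.85, and the median over its 21 kept probe sets was -0.28. The higher calls were 3 of the 12 probe sets of TIGAR, by 1.31 to 1.41, and 1 of 16 of BAX (0.78 ± 0.15, limma adjusted p = 0.0346).

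No probe set of MDM4 or EI24 was called alone. All 28 kept probe sets of MDM4 were below 0, as were all 20 of DDB2, all 14 of ZMAT3 and all 6 of GADD45A. All 12 kept probe sets of TIGAR and 17 of 20 of EI24 were above 0. Before the filter MDM4 had 34 probe sets and TIGAR 21. Probe sets of a gene share the same arrays and are not replicates, and the share of all genes with such agreement is not given here. MDM2 had 19 of 22 probe sets above 0 with a range of -0.30 to 0.80. In the RBFOX2 knockdown limma called 0 member probe sets, where 0.000433% of all probe sets were called; 93 of 482 were lower and 7 higher at an unadjusted p under 0.05, beside 4.73% and 4.38% of all probe sets. Between the knockdowns 0 were called, as over all probe sets (0%), with 17 lower and 27 higher at an unadjusted p under 0.05, beside 2.31% and 3.46% of all probe sets. Without control replicate 3 the counts were 56 for the labelled CPSF3 knockdown (5.85% of all probe sets) and 22 for the RBFOX2 knockdown (2.73%). Leaving out control replicate 1 or 2, or any 1 labelled CPSF3 array, left 3 to 5 called in the first comparison. Over all probe sets the same omissions left 106 to 279 called.

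**Figure D4:**
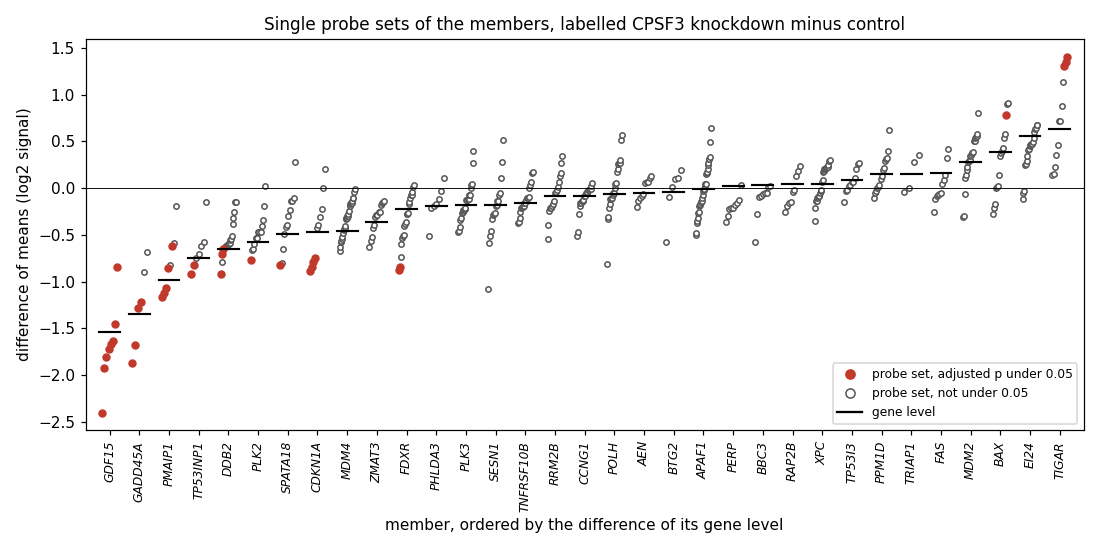
Difference of mean log2 signal between labelled CPSF3 knockdown and control (vertical axis) for each of the 482 kept probe sets, by member (horizontal axis, ordered by the difference of the gene level, shown as a bar); filled points have a limma adjusted p under 0.05. All 8 probe sets of GDF15 are filled, and the filled points above 0 belong to TIGAR and BAX.

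Exon signal, the signal of a probe set minus the level of its gene on the same array, was read for 478 probe sets in 32 members to show parts of a gene that depart from its level. Limma called 0 of them in each of the 3 comparisons, as over all genes (0%). At an unadjusted p under 0.05 there were 70 (14.6%, beside 12.7% of all) in labelled CPSF3 knockdown against control, 47 (9.83%, beside 7.88%) in RBFOX2 knockdown against control and 21 (4.39%, beside 4.24%) between the knockdowns. These shares lie near the background. The smallest p belonged to a GDF15 probe set (ps3825008) whose exon signal was -0.38, -0.25 and -0.31 in control and 0.47, 0.37 and 0.31 in the labelled CPSF3 knockdown, a difference of 0.70 ± 0.11 (limma adjusted p = 0.0742). It is the probe set with the smallest fall of that gene. Another of GDF15 (ps3825012) departed the other way by -0.86 ± 0.16 (limma adjusted p = 0.0907).

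A probe set of PLK3 (ps2334220) had a higher exon signal in both knockdowns, at 1.42, 1.32 and 1.09 in control, 1.95, 1.73 and 1.91 in the labelled CPSF3 knockdown and 1.86, 1.81 and 1.82 in the RBFOX2 knockdown. No array overlapped with control, and neither difference was called (0.59, limma adjusted p = 0.112; 0.55, limma adjusted p = 0.409). SPATA18 and PPM1D held the next smallest p in the RBFOX2 knockdown, with differences of 0.82 and 0.53 for 2 probe sets of SPATA18 and of 0.48 for 1 of PPM1D. With the mean in place of the median as the level of a gene, GDF15 probe set ps3825008 was called (0.84 ± 0.12, limma adjusted p = 0.0318). Without control replicate 3, 6 exon signals of members were called in the labelled CPSF3 knockdown (1.49% of all) and 3 in the RBFOX2 knockdown (0.32%). Positions of these probe sets along the genes were not used here.

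Of the 33 members, 28 had at least 1 RefSeq promoter window, from 250 bases before to 50 bases after a transcript start, in 39 windows. A p53 decamer on either strand was found for 8 members (AEN, DDB2, EI24, FAS, FDXR, PLK2, RAP2B and SESN1), in 20.5% of the member windows and in 6.63% of all 35116 windows. The full site of DDB2 contains a pair of those decamers, and only 0.0285% of all windows held such a site. The E-box CACGTG occurred in the windows of AEN, BAX and BBC3 (7.69%, beside 7.26% of all) and the cAMP response element TGACGTCA in that of PPM1D (2.56%, beside 1.85% of all). TGATGNAAT, a form of the element bound by ATF4 and CHOP, was in no member window and in 0.991% of all. The GC box GGGCGG was in windows of 24 members, 82.05% of member windows and 44.95% of all. These are matches of letters within short windows, with no mismatch allowed. Sites that differ from the pattern were not counted, and p53 sites that lie farther away, as those known for CDKN1A, are outside the windows. Of the 8 members with a decamer, DDB2 and PLK2 were called lower and EI24 higher in the labelled CPSF3 knockdown, and the other 5 were not called.

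Other genes of the pathway give the setting of these members; the counts of their calls in the labelled CPSF3 knockdown stand beside 4.38% of all genes called lower and 10% called higher. Of 39 listed genes of the p53 family and its regulators, 37 were tested and 7 were called higher in the labelled CPSF3 knockdown, none lower. The acetyltransferase genes EP300 (0.83 ± 0.16, limma adjusted p = 0.0054) and CREBBP (0.72 ± 0.12, 0.00272) led. EP300 measured 9.16, 8.98 and 9.62 in control and 10.25, 10.03 and 9.98 in the labelled CPSF3 knockdown. In the RBFOX2 knockdown 0 of the 37 were called, and 5 had an unadjusted p under 0.05, beside 13.6% of all genes. All 10 tested ribosomal proteins that bind MDM2 and so stabilise p53 were below 0 in the labelled CPSF3 knockdown, beside 48.4% of all genes. In the RBFOX2 knockdown too all 10 were below 0, beside 44.0% of all genes. The summed levels of the 10 were 109.1 to 113.7 in control, 108.9 to 109.3 in the labelled CPSF3 knockdown and 107.7 to 110.5 in the RBFOX2 knockdown. The lowest control array thus lay within the range of either knockdown, and both comparisons share the control arrays. RPS7 was called in the labelled CPSF3 knockdown (-0.64 ± 0.18, limma adjusted p = 0.0307). Its level on control replicate 3 was 8.45, beside 9.32 and 9.21 in the other controls. Of 51 tested further p53 targets outside the members, 7 were lower, led by PRKAB2 (-0.69) and EDA2R (-0.57), and 1 was higher, ASCC3 (0.45). Their median difference was 0.04.

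Among 32 CDK inhibitors and growth arrest genes outside the members, 8 were called lower and 3 higher in the labelled CPSF3 knockdown. TXNIP, a thioredoxin inhibitor, fell by 2.28 ± 0.24 (limma adjusted p = 0.000538), to 9.46, 9.59 and 9.54 from 11.93, 11.96 and 11.56, and was also called in the RBFOX2 knockdown (-1.35 ± 0.24, limma adjusted p = 0.048). DDIT3, which encodes CHOP, fell by 1.34 ± 0.23 (limma adjusted p = 0.0037). TOB2 (0.89) and the retinoblastoma gene RB1 (0.67) rose. Of 14 tested cyclins, cyclin-dependent kinases and partners under the control of p21, 4 were called higher, led by CCNE2 (0.70 ± 0.13, limma adjusted p = 0.00504) and E2F3 (0.58), and none lower. In the RBFOX2 knockdown CCND2 fell by 0.83 ± 0.12 (limma adjusted p = 0.0185), and it was higher in the labelled CPSF3 than in the RBFOX2 knockdown by 0.74 (limma adjusted p = 0.026). Of 26 BCL2 family, caspase and death receptor genes, 3 (11.5%) were called higher, a share near the 10% of all genes, and none lower; they were CASP8 (0.65), CASP6 (0.53) and RIPK1. All these lists were chosen with results of these arrays known.

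Markers of other cell types were read on the same arrays. None of the 11 fibroblast, 5 blood cell and 8 endothelial markers with a gene level was called by limma in any comparison, and at an unadjusted p under 0.05 there were 2, 0 and 1 in the labelled CPSF3 knockdown and 1, 0 and 1 in the RBFOX2 knockdown, where 28.2% and 13.6% of all genes were under that threshold. Their summed levels were 86.3 to 87.9 in control and 85.2 to 88.0 in the labelled CPSF3 knockdown for fibroblast, 41.4 to 43.1 and 41.2 to 42.4 for blood, and 65.0 to 66.2 and 63.7 to 65.6 for endothelium. In the RBFOX2 knockdown the sums were 87.7 to 89.3 for fibroblast, 42.4 to 42.8 for blood and 65.4 to 66.2 for endothelium. All 11 fibroblast markers were lower in the labelled CPSF3 than in the RBFOX2 knockdown, as were 3 of 5 blood and 6 of 8 endothelial markers, beside 49.9% of all genes. RMA gives no value of 0, so these markers have a floor and no absence. Of 8 epithelial markers CDH1 (-0.55) and KRT8 (-0.57) were called lower in the labelled CPSF3 knockdown, and 7 of the 8 were below 0. The summed levels of the 8 were 74.9 to 76.3 in control and 73.1 to 74.3 in the labelled CPSF3 knockdown. Of 12 genes known from HEK293 cells, KRT8 again among them, 6 were called lower in the labelled CPSF3 knockdown and LIN28B higher (0.83). ENO2 (-1.33) and VIM (-1.05) led the falls, and 11 of the 12 were below 0. Over all genes 4.38% were called lower, 10% were called higher and 48.4% were below 0. In the RBFOX2 knockdown ENO2 was called (-0.92) and 9 of the 12 were below 0, beside 0.173% and 44.0% of all genes. VIM was called lower in the labelled CPSF3 than in the RBFOX2 knockdown (-0.64). The summed levels were 113.4 to 114.9 in control, 108.6 to 109.5 in the labelled CPSF3 knockdown and 110.1 to 111.6 in the RBFOX2 knockdown. The part of these differences in the values of the members was not tested.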

How the data were processed

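Values are RMA probe set signals on a log2 scale as deposited by the authors. Affymetrix Power Tools, RMA and hg18 are listed in the submitters' processing notes, and the series text lists the Exon Array Computational Tool; versions were not stated. RMA gives every array 1 distribution, which hides a shift common to most transcripts and compresses differences of weak signals.

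Of 1384231 probe sets, 354600 had 1 gene symbol in the platform annotation, 14898 several and 1014733 none; only the first kind named a gene. Of 19497 symbols, 16426 were current in RefSeq, 2950 were updated through a synonym and 121 were kept. Probe sets with a mean over the 9 arrays at or above the median of all (6.97) were kept: 692116, of which 266506 had 1 gene. Gene levels (median of at least 3 kept probe sets), kept probe sets and exon signals (genes with at least 5; 257548 in 15035 genes) were fitted separately with limma 3.58.1 in R 4.3.3: 1 model of 3 groups, no block, 2-sided, Benjamini-Hochberg at 0.05. The fit was checked on simulated data. With 3 arrays per group, the smallest p of an exact permutation test is 0.1. The number of arrays limits the precision.

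Alternatives were the filter, the normalization, the mean as gene level, a replicate block, a robust variance trend, array weights, the 2 groups alone and leaving out each array. The members, gene lists and motifs were chosen with earlier results of these data known, and the GC box and the promoters to print after the values were seen. Given in every array were the called members and MDM2, MDM4, CDKN1A, BAX, FAS, PPM1D and BBC3; of other lists, up to 2 highest and 2 lowest called genes; of exon signals, up to 3 with the smallest p. The background shares for arrays that do not overlap, for unadjusted p and for single alternatives were also added after the values were seen. Promoter sequences are from RefSeq (GRCh38.p14), matched by symbol; those of chromosome 8 are not shown.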

Additional observations from a re-analysis of the deposited data

How the results depend on the processing

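The calls of GDF15, PMAIP1, GADD45A, TP53INP1 and DDB2 in labelled CPSF3 knockdown against control held under all 18 alternatives. In that comparison the count of called members was between 5 and 13 when 1 array was left out. It was between 10 and 16 with the other alternatives, apart from the filters. With no filter it was 8 and with the stricter filter 9. The share of all genes called with these filters is not given here, so those counts have no background to be read against. Of all genes, 5.76% to 20.5% were called with 1 array left out. With the other alternatives, apart from the filters, that share was 11.4% to 28.8%. In RBFOX2 knockdown against control the count of called members was 1 with the stricter filter, where 37 genes were called in all. It was also 1 with quantile normalization (0.209% of all genes called), the mean of probe sets (0.263%) and the robust variance trend (0.191%). With array weights it was 9 (9.03%), and with 1 array left out it was 0 to 6 (0.0119% to 9.23%). The replicate numbers were not taken to pair the arrays, since not every correlation of deviations for the same number passed 0.1. Those correlations were 0.33, 0.26 and -0.14 between control and labelled CPSF3 knockdown, and -0.08, -0.04 and -0.02 between control and RBFOX2 knockdown. Between the knockdowns they were 0.08, 0.04 and 0.22. Correlations for different numbers ran from -0.45 to 0.35, both between control and labelled CPSF3 arrays. Deviations from a mean of 3 arrays sum to 0, so these values do not decide whether the arrays were paired. With a replicate block, 4 members were called in the RBFOX2 knockdown (GADD45A, TP53INP1, ZMAT3 and SPATA18), beside 0.818% of all genes. The other counts of called members stayed at 11 (15.3% of all genes) and 1 (0.251%). Between the knockdowns the count was 2 with array weights (3.59% of all genes called) and 0 to 1 with 1 array left out (0.0836% to 0.866%).

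Called member probe sets in the labelled CPSF3 knockdown numbered 1 with no filter, where 74 of all probe sets were called. With 1 array left out they numbered 3 to 56. There were 3 without control replicate 1, beside 106 of all probe sets, and 56 without control replicate 3, beside 40520. In the RBFOX2 knockdown they numbered 0 to 22 with 1 array left out, and the 22 stood beside 18869 of all probe sets. Called exon signals of members numbered 1 in the labelled CPSF3 knockdown with the mean as gene level, where 678 of all exon signals were called. With 1 array left out they numbered 0 to 6 there and 0 to 3 in the RBFOX2 knockdown. The highest counts came without control replicate 3, where 1.49% and 0.32% of all exon signals were called. The fall of RBFOX2 was called with the stricter filter (-0.67), the mean of probe sets (-0.56), the block (-0.58), array weights (-0.69) and without control replicate 3 (-0.66), and was -0.66 to -0.52 with 1 array left out. The difference of CPSF3 was -0.20 to 0.071 with 1 array left out. The cause of these shifts was not tested.

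The members given on every array whose difference changed sign were not called in the comparison concerned. Against control in the labelled CPSF3 knockdown, FAS was -0.14 with no filter and -0.087 with the stricter filter, and BBC3 -0.086 with the stricter filter and -0.13 with the mean; with 1 array left out BBC3 was between -0.084 and 0.17. In the RBFOX2 knockdown MDM2 was -0.11 with no filter, -0.0053 with the stricter filter and -0.011 with the mean, and -0.12 to 0.19 with 1 array left out; FAS was -0.0097 with the stricter filter. PPM1D there was 0.18 with no filter, 0.13 with the stricter filter, 0.00062 with quantile normalization, 0.0024 with centring, 0.042 with the mean and 0.041 with array weights, and -0.065 to 0.12 with 1 array left out. Between the knockdowns FAS was -0.17, -0.077, -0.11 and -0.11 with no filter, the stricter filter, the mean and array weights, and -0.12 to 0.16 with 1 array left out. SPATA18 was -0.085 with no filter, MDM4 0.055 and PLK2 0.079 with the stricter filter, and BBC3 -0.034 with the mean. MDM4 was between -0.18 and 0.027 with 1 array left out.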
